A study of Mus musculus with 16 samples.

Results

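The 39 genes described here are a chosen list of interferon-stimulated genes, the genes that type I interferon switches on, followed in the left ventricle of 16 mice. All 39 symbols were found among the 24982 gene entries of the deposited count table, and all 39 were among the 13775 genes that passed the filter on low counts. The mice were C57BL/6 and all carried the Tln2-null genotype (Tln2 is the gene of talin 2). The Tln2-null group (8 mice, 4 males and 4 females) had no further genotype listed. The other 8 mice (4 males and 4 females) were labelled Tln2-null; Tln1-specific CF knockout, where CF stands for cardiac fibroblast, and are called knockout below. Talins link integrins to the actin cytoskeleton. Every mouse had received tamoxifen by intraperitoneal injection for 5 days and, starting 2 weeks later, an 8-week infusion of angiotensin II (AngII) by osmotic pump. There was no group without AngII and none with an intact Tln2 gene, so the list could be compared only between the 2 genotypes and between the sexes, all on AngII. The sources used here do not name the Cre driver, the deleted exons or the ages of the mice.

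Type I interferons bind the receptor made of Ifnar1 and Ifnar2, whose kinases are Jak1 and Tyk2. Signalling assembles the factor ISGF3, of which Stat2 and Irf9 are parts and which binds the interferon-stimulated response element (ISRE) in front of its target genes. Interferon gamma acts through another element, the gamma-activated site (GAS), and part of the list, such as Irf1, Gbp2 and Igtp, is well known as a target of interferon gamma too. In the heart, interferon-stimulated genes are best known from viral myocarditis and from the response to infarction.

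The response elements show what the listed genes share in sequence, and the RefSeq table of promoters (build GRCm38.p6) held 36 start sites for 30 of the 39 genes. The 250 bases before each start were searched for a core of the ISRE, GAAANNGAAA, which reads TTTCNNTTTC on the other strand; matches were allowed to overlap. Of the 30 matched genes, 13 (43.3%) held at least 1 core, against 936 of all 27025 genes in the table (3.46%). Counted by start site, these were 13 of 36 (36.1%) and 978 of 32851 (2.98%). A core of the GAS, TTCNNNGAA, which reads the same on both strands, was found in 8 of the 30 genes (26.7%) and in 8.13% of all genes. A match describes these letters only, since binding was not measured. The windows below, each 80 bases long, are printed 5′ to 3′ along the strand of the gene, with every ISRE core in capitals. They are shown because they cover the arrangements found: overlapping cores in a row, separate cores, and a single core.
Isg15 (chr4:156200846-156200925, minus strand): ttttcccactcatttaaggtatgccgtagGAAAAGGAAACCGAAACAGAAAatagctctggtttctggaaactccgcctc
Oas1a (chr5:120907526-120907605, minus strand): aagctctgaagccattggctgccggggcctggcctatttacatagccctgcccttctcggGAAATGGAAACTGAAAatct
Bst2 (chr8:71537555-71537634, minus strand): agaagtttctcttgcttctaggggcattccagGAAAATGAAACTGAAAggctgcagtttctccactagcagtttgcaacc
Gbp3 (chr3:142559964-142560043, plus strand): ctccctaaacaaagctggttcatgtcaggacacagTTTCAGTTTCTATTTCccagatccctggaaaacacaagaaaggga
Ifit1 (chr19:34640759-34640838, plus strand): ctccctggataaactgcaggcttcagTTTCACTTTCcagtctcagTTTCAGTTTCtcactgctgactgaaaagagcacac
Ifit3 (chr19:34583355-34583434, plus strand): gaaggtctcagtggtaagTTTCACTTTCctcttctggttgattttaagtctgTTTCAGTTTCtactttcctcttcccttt
Ifit3b (chr19:34607751-34607830, plus strand): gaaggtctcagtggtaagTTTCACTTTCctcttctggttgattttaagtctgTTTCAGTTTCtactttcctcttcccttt
Rsad2 (chr12:26456528-26456607, minus strand): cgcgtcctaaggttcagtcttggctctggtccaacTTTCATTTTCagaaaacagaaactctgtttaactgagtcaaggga
Gbp2 (chr3:142620569-142620648, plus strand): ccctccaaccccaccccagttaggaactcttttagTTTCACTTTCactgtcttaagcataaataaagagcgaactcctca
Isg15 held 3 overlapping cores between 78 and 66 bases before its start, and Oas1a held 2 within 20 bases of its own. In Ifit1, Ifit3 and Ifit3b both cores ran against the direction of the gene. The windows of Ifit3 and Ifit3b differed at 0 bases. In all, 7 of the genes held 2 or more cores. The core ran in the direction of the gene in 5 genes and against it in 8. Among genes with no core in the searched window were Irf7, Irf9, Ddx58, Xaf1 and Isg20; Isg20 and Irf1 each held a GAS core, 73 and 90 bases before the start.

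**Figure D1:**
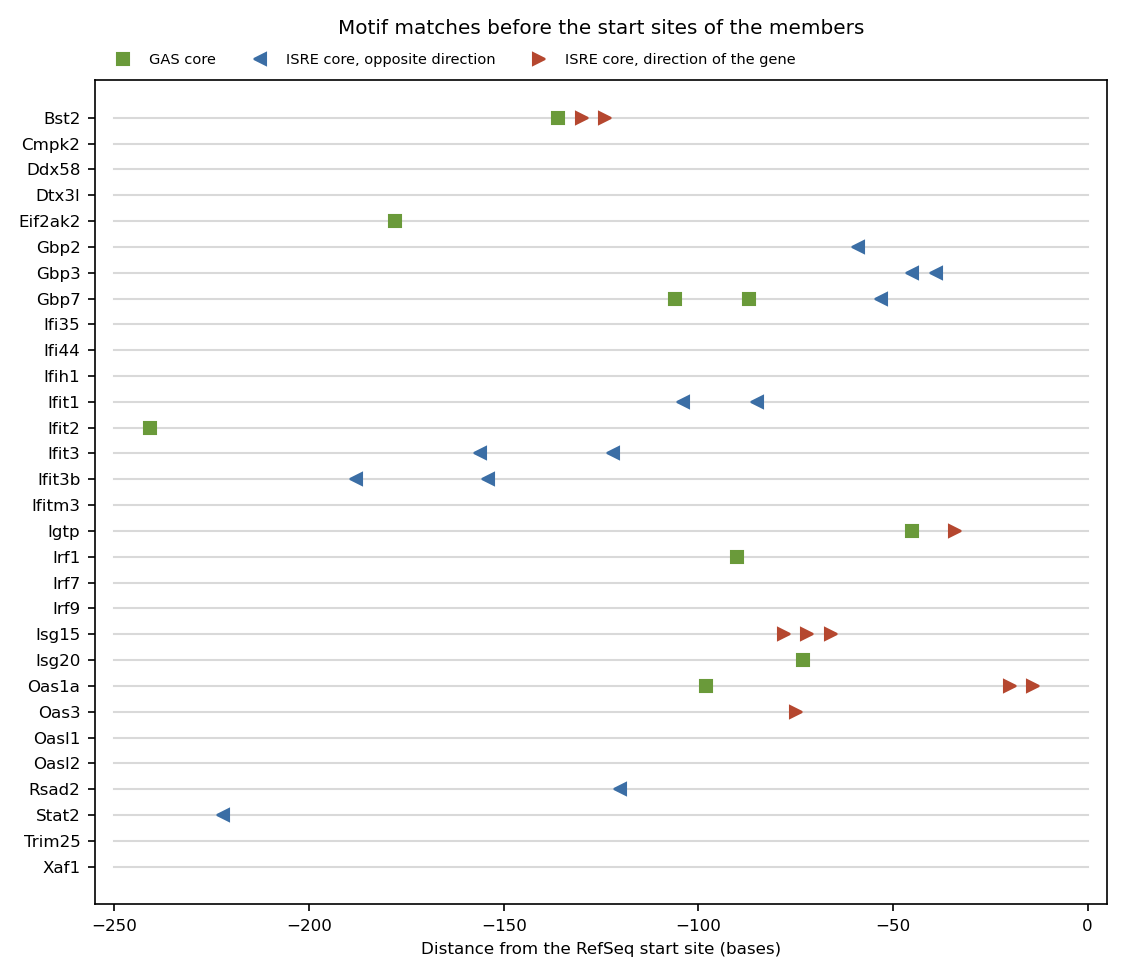
Matches to the ISRE core (triangles, pointing along the strand of the match) and to the GAS core (squares) in the 250 bases before the RefSeq start sites of the 30 matched genes; the horizontal axis is the distance from the start in bases and start sites of the same gene share a line. The ISRE cores of Isg15, Gbp2, Gbp3, Gbp7, Igtp, Oas1a and Oas3 lie within 80 bases of the start. That of Stat2 lies farthest, at 222 bases.

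The libraries held between 11161766 and 19221673 counts (knockout replicates 8 and 5), and 3 counts correspond to between 0.151 and 0.268 CPM. CPM are counts relative to the library total, scaled with trimmed-mean factors. Tln1 was at 289 ± 20.7 CPM (SD, n = 8) in Tln2-null and at 274 ± 31.3 (n = 8) in knockout ventricle. Its log2 difference of -0.079 ± 0.069 (SE) had an adjusted p of 0.94 in edgeR's quasi-likelihood test, and its ranges overlapped (251 to 322 and 221 to 323 CPM). Tln2 reads were counted in every mouse (55.6 to 76.8 CPM), although all are labelled Tln2-null; which part of the gene is deleted is not known here. Whole ventricle holds many cell types besides fibroblasts, so these values do not check the labels. Cardiomyocyte markers were abundant in every ventricle, summing to between 50845.6 and 60483.3 CPM. Of the 8 females, 4 (Tln2-null replicate 4 and knockout replicates 3, 5 and 7) had Y-linked counts above 1% of the male mean (1.11% to 2.89%). Tln2-null replicate 8 and knockout replicate 8 stood apart in clock genes, and Tln2-null replicate 5 in heat shock genes. In bulk tissue, fewer cells of a type and less RNA per cell cannot be told apart.

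Reads of all 39 interferon response genes were counted in every ventricle, with mean levels from 0.598 CPM (Oas3) to 87.4 CPM (Ifitm3). Mx1 fell to 2 counts (0.136 CPM) in knockout replicate 6. Per kilobase of exon, Ifitm3, which blocks the entry of viruses from endosomes, stood first at 129 CPM per kb. Ifi27, a mitochondrial and nuclear membrane protein, followed at 26.3, Bst2 (tetherin), which holds budding virus at the cell surface, at 24.7 and Ifi35 at 14.9 CPM per kb. At the other end were Mx2 at 0.597, Mx1 at 0.197 and Oas3 at 0.0846 CPM per kb. Mx1 and Mx2 encode antiviral GTPases that are defective in most laboratory strains, C57BL/6 among them. For all 39 genes together, the summed level was 809 ± 60.2 CPM (SD, n = 8) in Tln2-null and 778 ± 81.9 CPM (n = 8) in knockout mice, with a range of 705 to 954 CPM over both.

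The ligands themselves were nearly absent from the counts. Of 15 interferon genes in the table, 11 had no count in any library, among them 6 of 7 interferon alpha genes. A count of 0 over all 266967678 counts allows a level of up to 0.0112 CPM, counting error only. The other ligands had 14 counts in all: 6 of Ifnz, 5 of Ifng, 2 of Ifnb1 and 1 of Ifna13. The receptor genes were present, Ifnar1 at 43.6 ± 2.31 CPM in Tln2-null and 42.7 ± 1.93 in knockout mice, and Ifnar2 at 42.8 ± 2.21 and 41.6 ± 2.08 CPM (SD, n = 8 each).

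None of the 39 interferon response genes differed between knockout and Tln2-null ventricle at an adjusted p under 0.05. The test was edgeR's quasi-likelihood test with sex as a term and Benjamini-Hochberg adjustment over all 13775 genes, and it called 0% of them. At an unadjusted p under 0.05 it picked 1 of the 39 genes, against 5.08% of all genes. The smallest adjusted p in the list was 0.81. Of the 39 genes, 28 had a lower fitted level in knockout mice and 11 a higher one (71.8% lower, against 51.2% of all genes). The median log2 difference was -0.076, against -0.0027 over all genes, and single genes ranged from -0.49 to 0.21. The 95% confidence interval of the difference lay within a 2-fold change either way for all 39 genes, and within 1.5-fold for 34.

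That small shift of the list moved with single mice and with the terms of the fit. With the number that ends each sample title as an added term, the median was -0.036. Without Tln2-null replicate 2 the median was -0.0026, with 21 of 39 genes lower, and without knockout replicate 2 it was -0.117, with 31 lower. It was -0.010 without knockout replicate 5 (21 lower), -0.028 without knockout replicate 7, -0.034 without knockout replicate 3 and -0.035 without Tln2-null replicate 5. Without the 4 females above that Y-linked limit it turned to 0.093 with 12 of 39 genes lower. That fit kept a single knockout female, replicate 2, the mouse with the highest levels of the list. The summed fibroblast markers ranged from 2382 to 3373.5 CPM in Tln2-null mice and from 1982.6 to 2755.8 CPM in knockouts, and all 9 of them had lower fitted levels in knockout mice, 7 at an unadjusted p under 0.05 and none past the adjusted threshold. The part of the cell makeup in the values of the list was not tested. Summed macrophage markers overlapped between genotypes (327 to 394 and 291 to 391 CPM).

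**Figure D2:**
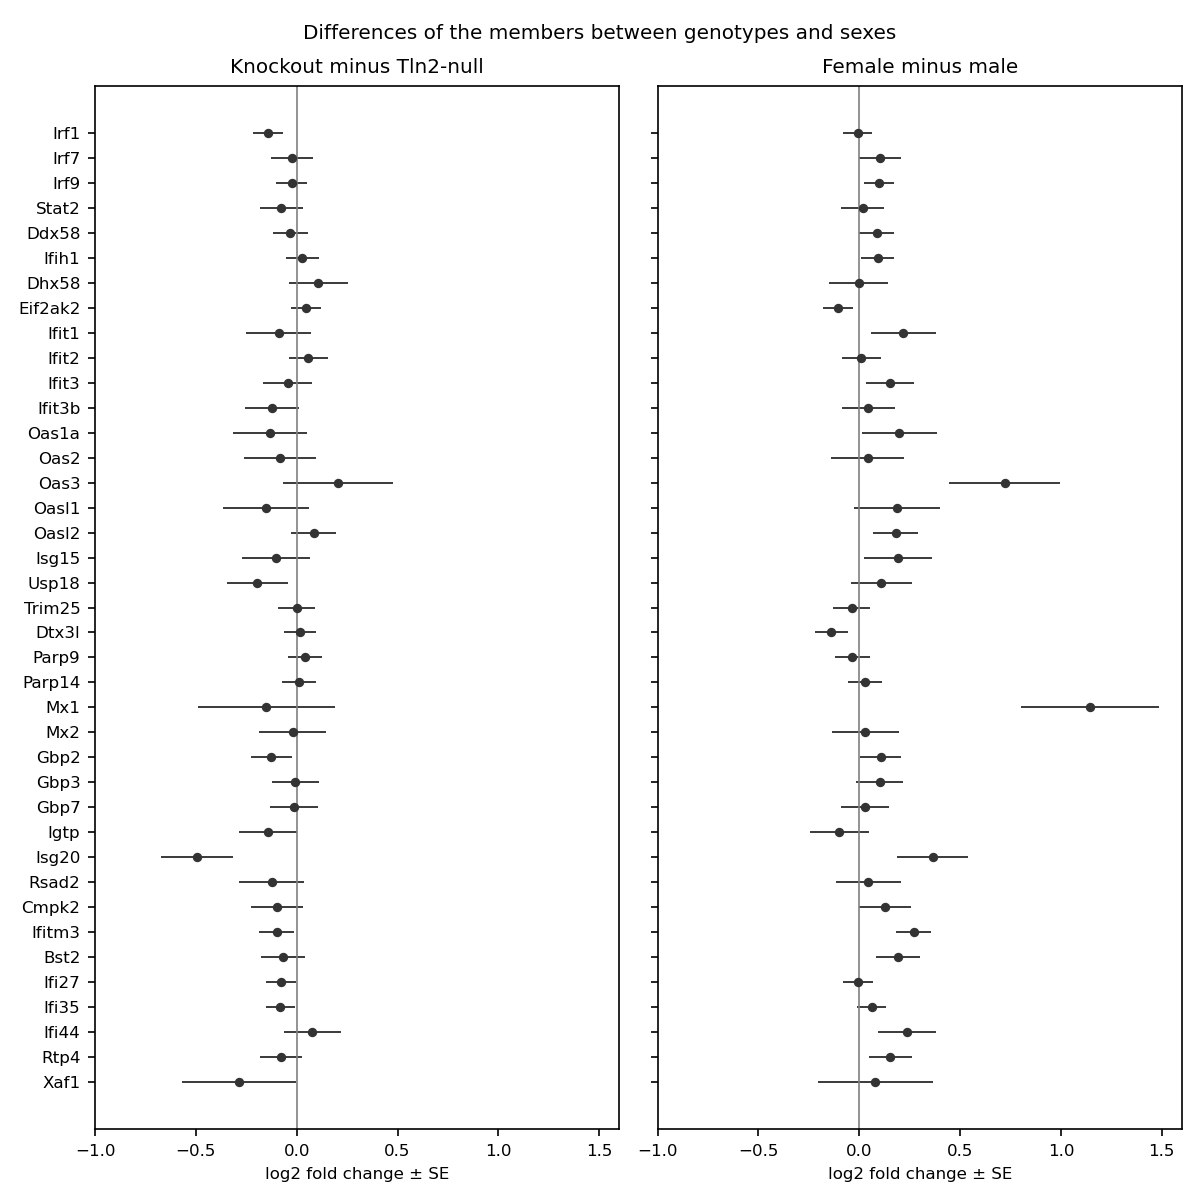
Log2 fold changes of the 39 genes (points) with their standard errors (lines), knockout minus Tln2-null on the left and female minus male on the right, from the fit over all 16 mice. Isg20 lies farthest to the left for genotype at -0.49, and Mx1 and Oas3 lie farthest to the right for sex.

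Isg20, an exonuclease that degrades viral RNA, had the lowest p of the list for genotype. Its level in Tln2-null mice was 3.10 CPM at the lowest, 4.00 at the median and 7.0 at the highest, and in knockout mice 1.56, 2.88 and 4.29 CPM. Below the Tln2-null mean of 4.28 CPM lay 7 of 8 knockout mice, but the groups overlapped, and the highest value, in the Tln2-null female replicate 8, lay well above the others. The log2 difference was -0.49 ± 0.18 (SE), with an adjusted p of 0.81 from edgeR. Without Tln2-null replicate 8 it was -0.387.

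Irf1, a transcription factor of both interferon pathways, was next. It ranged from 36.2 to 44.6 CPM in Tln2-null mice (median 39.7) and from 28.4 to 39.9 CPM in knockout mice (median 37.8). All 8 knockout mice lay below the Tln2-null mean of 40.3 CPM, and 5 of them lay inside the Tln2-null range. Its log2 difference of -0.14 ± 0.073 had an adjusted p of 0.94 in edgeR, and the interval ran from -0.29 to 0.010. Without knockout replicate 7, the lowest mouse, the difference was -0.092.

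The other transcription factors of the list stayed closer to 0. Irf7, the factor that amplifies interferon production, was at 15.3 ± 1.43 CPM in Tln2-null mice and at 15.1 ± 3.01 CPM in knockouts (SD, n = 8), a log2 difference of -0.022 (interval -0.24 to 0.20). Irf9, the DNA-binding part of ISGF3, was at 25.7 ± 2.73 and 25.3 ± 2.85 CPM. Stat2, its partner, was at 28.5 ± 2.92 and 27.0 ± 5.36 CPM (SD, n = 8). Knockout mice spread more widely than Tln2-null mice in Irf7 and in Stat2, with their highest value in the same female, knockout replicate 2.

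Among the sensors of viral RNA, 1 of 4 genes had a lower fitted level in knockout mice, Ddx58 (RIG-I). Ifih1 (MDA5), Dhx58 (LGP2) and Eif2ak2 (PKR, the kinase that stops translation on viral RNA) were higher by 0.027 to 0.11 on the log2 scale, less than their standard errors in each case. In the IFIT family, whose proteins bind foreign RNA and block its translation, 3 of 4 genes were lower and the differences ran from -0.12 in Ifit3b to 0.056 in Ifit2. Ifit3 and Ifit3b share 51.2% of the 50-base stretches of the former, so the division of reads between them is uncertain. In the OAS family, which includes the synthetases that activate RNase L, 3 of 5 genes were lower, from -0.15 in Oasl1 to 0.21 in Oas3. Oas1a shares 57.6% of its 50-base stretches with Oas1g, and its counts are uncertain for the same reason.

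The genes of the ubiquitin-like modifier system were spread around 0. Isg15, the modifier itself, had means of 4.83 ± 0.95 CPM in Tln2-null mice and 4.49 ± 1.40 CPM in knockouts. Usp18, which removes ISG15 from proteins and dampens the interferon receptor, was at 4.85 ± 0.60 and 4.22 ± 1.20 CPM (SD, n = 8). Its log2 difference was -0.20 ± 0.15, with an adjusted p of 0.94 in edgeR, and it was -0.319 without knockout replicate 2, -0.107 without knockout replicate 5 and -0.0195 without the 4 females with Y-linked counts above 1% of the male mean. Trim25, a ligase that activates RIG-I, had means of 58.2 and 58.1 CPM, the closest match in the list. Dtx3l, Parp9 and Parp14, which ADP-ribosylate or ubiquitinate proteins, differed by 0.0099 to 0.042 on the log2 scale.

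All 6 GTPases and all 5 of the other antiviral effectors had lower fitted levels in knockout mice, none of them past the threshold. Gbp2, a guanylate-binding protein that attacks the vacuoles of intracellular pathogens, was at 34.4 ± 5.91 CPM in Tln2-null mice and at 31.5 ± 4.40 CPM in knockouts. Its log2 difference was -0.13 ± 0.10, but -0.0547 without Tln2-null replicate 2, -0.0785 without Tln2-null replicate 5 and -0.0295 without the females above the Y-linked limit. Ifitm3 ranged from 70.5 to 115.6 CPM (median 89.2) and from 68.6 to 113.6 CPM (median 81.1). The ranges of Ifitm3 covered each other almost fully, and its log2 difference of -0.098 ± 0.087 turned to 0.0235 without the 4 females above the Y-linked limit. Igtp, a GTPase of the IRG family, differed by -0.14 ± 0.15, and Rsad2 (viperin), which makes a chain-terminating nucleotide, by -0.12 ± 0.16. Of the 5 remaining induced genes 4 were lower, with Ifi27 at -0.079 ± 0.074 and Ifi35 at -0.080 ± 0.073, and Ifi44 was higher by 0.078 ± 0.14.

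Xaf1, a pro-apoptotic partner of XIAP, had the largest spread over the 16 mice after Mx1. It was at 34.2, 18.3, 7.24 and 23.6 CPM in knockout males 1, 6, 4 and 8, and at 29.2, 8.83, 27.8 and 7.93 CPM in knockout females 2, 3, 5 and 7. The 3 lowest mice, all knockout, lay between 7.24 and 8.83 CPM, and the other 13 mice of both genotypes lay between 18.3 and 34.9 CPM. Knockout mice were found at both ends, so the means of 24.0 ± 4.80 and 19.6 ± 10.7 CPM (SD, n = 8) differed by less than the spread. The log2 difference was -0.29 ± 0.28, with an adjusted p of 0.95 in edgeR. It was -0.467 without knockout replicate 1, between -0.162 and -0.151 without knockout replicate 3, 4 or 7, -0.188 without Tln2-null replicate 2 and -0.00886 without the females above the Y-linked limit. With limma-voom it was -0.568.

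**Figure D3:**
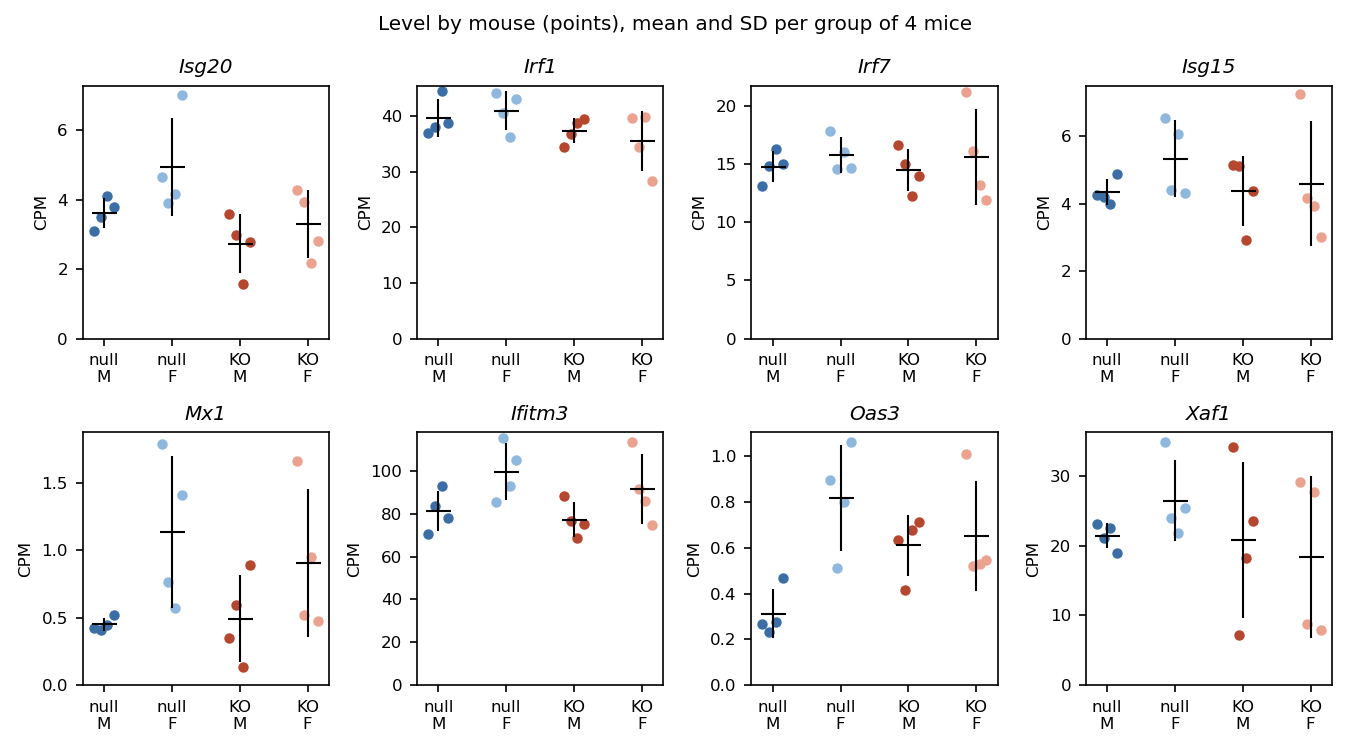
CPM per mouse (points) of 8 of the genes by genotype and sex (null, Tln2-null; KO, knockout; M, male; F, female), with the mean and SD of 4 mice as lines; every vertical axis starts at 0. In Xaf1, 3 knockout mice lie below 9 CPM and all other mice above 18 CPM, and in Irf7 and Isg15 the highest mouse is a knockout female.

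Between the sexes, no gene of the list passed the threshold either. Over all genes the sex test called 12 (0.0871%). At an unadjusted p under 0.05 it picked 3 of the 39 genes, against 3.69% of all genes: Mx1, Ifitm3 and Oas3, all higher in females. Fitted levels were higher in females for 31 of the 39 genes and lower for 8 (20.5% lower, against 50.4% of all genes). The median log2 difference was 0.091, against -0.00079 over all genes. Without knockout replicate 2 that median was 0.026 with 16 of 39 genes lower in females, and without Tln2-null replicate 2 it was 0.045 with 14 lower. Without the 4 females above the Y-linked limit it was 0.267. That fit kept knockout replicate 2 and Tln2-null replicate 2, the mice with the highest levels of the list. It left out knockout replicates 5 and 7, those with the lowest. Granulocyte markers summed to between 6.70 and 24.5 CPM in males and between 7.55 and 79.5 CPM in females, and all 6 of those tested had higher fitted levels in females, 5 of them at an unadjusted p under 0.05 and none past the adjusted threshold. Their part in the sex difference of the list was not tested.

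Mx1 had a mean of 0.472 ± 0.217 CPM (SD, n = 8) in males and 1.02 ± 0.532 CPM (n = 8) in females. It was at 0.427, 0.408, 0.444 and 0.520 CPM in the 4 Tln2-null males and at 1.79, 0.767, 0.572 and 1.41 CPM in the 4 Tln2-null females, which did not overlap. In knockout mice, males had 0.353, 0.593, 0.136 and 0.893 CPM and females 1.67, 0.519, 0.954 and 0.478 CPM, which did. The log2 difference was 1.14 ± 0.34, with an adjusted p of 0.99 in edgeR, over libraries with 2 to 34 counts of the gene. Mx1 and Oas3 were picked for their low p between the sexes. How many of all genes separate the sexes of Tln2-null mice in the same way was not counted.

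Oas3, the lowest gene of the list per length, was at 0.267, 0.233, 0.278 and 0.468 CPM in Tln2-null males, below all 4 Tln2-null females (0.896, 0.512, 0.801 and 1.06 CPM). Knockout males had 0.634, 0.415, 0.679 and 0.714 CPM and knockout females 1.01, 0.519, 0.530 and 0.547 CPM, so in knockout mice the sexes overlapped. Its female-minus-male difference was 0.722 ± 0.275 on the log2 scale (adjusted p 0.9998 in edgeR), with 4 to 20 counts in a library. Ifitm3 was at 79.3 ± 8.53 CPM in males and 95.6 ± 14.5 CPM in females (SD, n = 8). Its log2 difference was 0.27 ± 0.087, and 7 of 8 females lay above the male mean. Isg20 was next, at 0.36 ± 0.18, with 6 of 8 females above the male mean.

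Within each sex, no gene of the list passed the threshold for genotype. In males, the contrast called 0% of all genes, and 1 of the 39 genes had an unadjusted p under 0.05, against 6.07% of all genes. That gene was Oas3, higher in knockout males by 0.93 ± 0.37 on the log2 scale (adjusted p 0.77 in edgeR), with 1 knockout male below the highest Tln2-null male. Eif2ak2 was at 18.6, 19.1, 19.7 and 22.1 CPM in Tln2-null males and at 18.8, 21.95, 24.0 and 25.5 CPM in knockout males, which overlapped. Ifit3b differed by -0.35 ± 0.18 between the male groups. Lower in knockout males were 19 of the 39 genes (48.7%, against 51.5% of all genes). The median difference of the list in males was 0.017, against -0.0058 over all genes. It ran from -0.0158 without knockout replicate 8 to 0.0748 without Tln2-null replicate 5, and lay below 0 without Tln2-null replicates 3 or 7 as well. In females, the contrast again called 0% of all genes, and 1 gene of the list (Isg20, -0.57 ± 0.25) had an unadjusted p under 0.05, against 3.31% of all genes. Without Tln2-null replicate 8 the difference of Isg20 in females was -0.36. Lower in knockout females were 35 of the 39 genes (89.7%, against 50% of all genes). The median of the list in females was -0.136, against 6.3e-06 over all genes. It was -0.255 without knockout replicate 2 (36 lower), -0.078 without Tln2-null replicate 2 (26 lower) and -0.069 without knockout replicate 5 (28 lower). Of the 4 females with Y-linked counts above 1% of the male mean, 3 were knockout.

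The difference of the genotype effect between the sexes was tested directly, as an interaction. It called 0% of all genes and none of the list. At an unadjusted p under 0.05 it picked 1 of the 39 genes, Oas3 (-1.23 ± 0.49, adjusted p 0.98 in edgeR), against 4.27% of all genes. Eif2ak2 (-0.27 ± 0.14) and Gbp7 (-0.42 ± 0.22), a guanylate-binding protein, came next. Of the 39 genes, 31 had a more negative knockout effect in females (79.5%, against 48.9% of all genes). The median interaction was -0.158, against 0.0046 over all genes. The median was -0.247 without knockout replicate 2, -0.0923 without knockout replicate 5 and -0.096 without Tln2-null replicate 2. A difference between the sexes in the genotype effect was thus not detected for any listed gene.

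The sample titles end in a number that the labels do not explain. A linear term in that number, beside genotype and sex, called 6.34% of all genes and none of the 39. At an unadjusted p under 0.05 it picked 8 of the 39 (20.5%), against 24.2% of all genes, a share near the background. Parp9, which partners Dtx3l, was first, with a slope of 0.023 ± 0.0070 on the log2 scale per step (adjusted p 0.063 in edgeR). Eif2ak2, Rsad2 and Dtx3l had positive slopes as well. Irf7, Oas2, Oasl2 and Isg15 had negative ones, that of Irf7 being -0.023 ± 0.0094 per step. Leaving out Tln2-null replicate 2 brought Parp9 past the threshold (adjusted p 0.041 in edgeR), and leaving out Tln2-null replicate 8 brought Oas2 past it.

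Mouse by mouse, the levels of many of the listed genes varied together, though not those of all. Each gene was standardised over the 16 mice on the log2 CPM scale, and the 39 values of a mouse were averaged. Knockout replicate 2, a female, had the highest mean at 1.31 SD units. It held the highest level of 17 of the 39 genes, among them Irf7, Irf9, Stat2, Ddx58 and Isg15, and lay above the median of the 16 mice in 36. Tln2-null replicate 2, also a female, was second at 0.944 and held the highest level of 8 genes, among them Mx1, Gbp2, Gbp3, Igtp and Xaf1. The lowest means were those of the knockout females replicate 5 (-0.752) and replicate 7 (-0.548), which held the lowest levels of 7 and 6 genes. Each genotype thus held mice at both ends: means ran from -0.509 to 0.944 in Tln2-null mice and from -0.752 to 1.31 in knockout mice. Knockout replicate 8, a male that stood apart in clock genes and had the fewest counts, had a mean of 0.312. It held the highest level of Eif2ak2, Ifit2, Dtx3l, Parp9 and Rsad2.

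**Figure D4:**
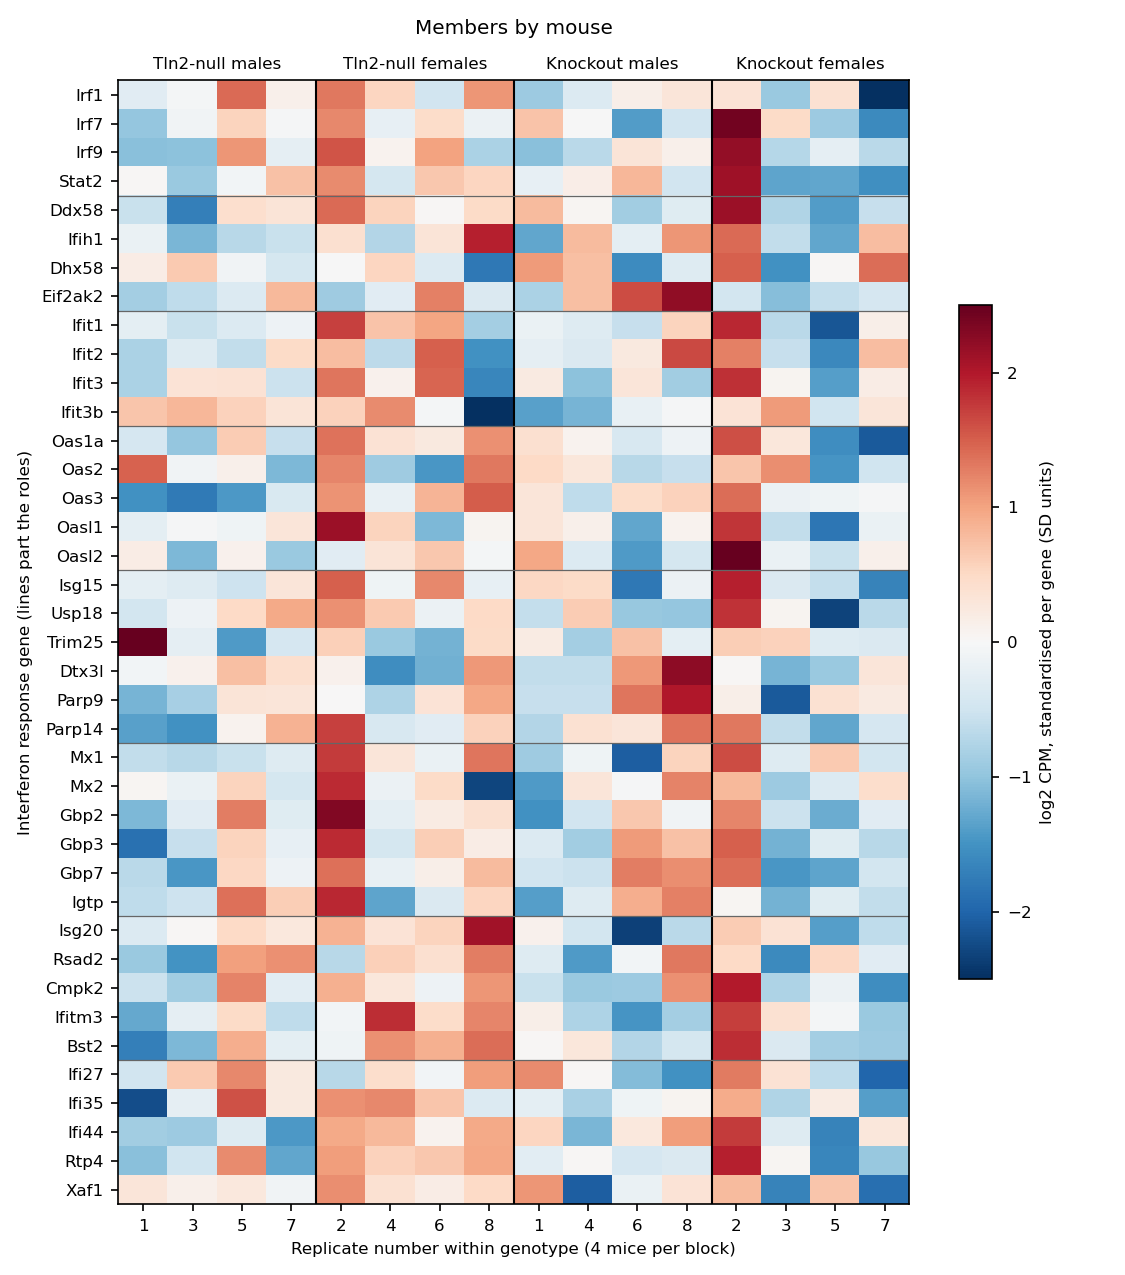
Log2 CPM of the 39 genes (rows, grouped by role) in the 16 mice (columns, grouped by genotype and sex), standardised per gene in SD units; red is above and blue below the mean of the gene, and colours end at the limits of the scale. The column of knockout replicate 2 is red in most rows and those of knockout replicates 5 and 7 are mostly blue, while Eif2ak2, Dtx3l and Parp9 are reddest in knockout replicate 8.

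Over all 741 pairs of listed genes, the median Pearson correlation across the 16 mice was 0.349, and 81.7% of pairs were above 0. Among pairs drawn from a regular sample of all genes tested, the median was -0.0011 and 49.9% were above 0. The median was 0.330 within the 8 Tln2-null mice and 0.409 within the 8 knockout mice, so the pattern was present in both genotypes. It was 0.268 without the 2 mice farthest from the median in Irf7, knockout replicates 2 and 7. Rtp4, a chaperone of membrane receptors, and Oas1a were the closest pair (0.874), and Ifi35 and Trim25 the most opposed (-0.58). All points share their libraries, so these values describe the mice and carry no test.

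Against the mean of the other listed genes, 24 of the 39 had a correlation of 0.5 or more. The highest were Ddx58 (0.854), Cmpk2 (0.840), a mitochondrial nucleotide kinase, Rtp4 (0.819) and Irf9 (0.812). At the lower end were Eif2ak2 (0.039), Dhx58 (0.041), Ifit3b (-0.051) and Trim25 (-0.10). Ifit3b took its lowest value, 3.32 CPM, in Tln2-null replicate 8, and Trim25 its highest, 81.7 CPM, in Tln2-null replicate 1. By role, pairs within the antiviral effectors had a median of 0.609, within the IFIT family 0.547 and within the transcription factors 0.535. Pairs within the ubiquitin-like and ligase group had a median of -0.020 and those within the RNA sensors 0.093.

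Genes that lie side by side on a chromosome were compared next, since many interferon-stimulated genes sit in clusters. Positions are those of GENCODE M21 on GRCm38. Within 1000000 bases of each other lay 20 pairs, made of 23 of the genes on 7 chromosomes. Their median correlation was 0.538, against 0.341 for the 721 other pairs. Most of the neighbours also share a role, and pairs within a role had a median of 0.47, against 0.33 across roles. Position and family therefore cannot be told apart here. The guanylate-binding genes of chromosome 3 had the highest correlations of the neighbouring pairs (Gbp3 and Gbp7 0.846, Gbp2 and Gbp3 0.816, Gbp2 and Gbp7 0.760). On chromosome 19, Ifit1 had a correlation of 0.759 with Ifit2 and 0.741 with Ifit3. On chromosome 16, Dtx3l and Parp9 overlap by 682 bases on opposite strands, and the sources used here do not say whether reads were counted by strand; they had a correlation of 0.731. Rsad2 and Cmpk2, 12751 bases apart on chromosome 12, had 0.620. Some neighbours had low correlations: Oas2 and Oas3, 3244 bases apart on chromosome 5, had 0.049, and Mx1 and Mx2 on chromosome 16 had 0.21.

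The sequence feature described first could be set beside these values. The 13 genes with an ISRE core in the searched window had a median correlation of 0.699 with the other listed genes (range -0.051 to 0.803). The 17 matched genes without one had a median of 0.510 (range -0.10 to 0.854). The ranges overlapped almost fully. Ddx58, with the highest correlation of all, had no core in its window, and Ifit3b, with cores in a window identical to that of Ifit3, had a correlation below 0.

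Irf7 was set against each of the other 38 genes, with permutation tests (two-sided, 100000 permutations) adjusted by Benjamini-Hochberg over the 38 relations. It had a positive Pearson correlation with 34 of them, and 16 passed an adjusted p under 0.05, all positive. By Spearman's rho 4 passed: Oas1a, Isg15, Isg20 and Rtp4. Of the 38 genes, 18 (47.4%) had a correlation of 0.5 or more with Irf7, as did 8.13% of all other genes. Without the 2 mice farthest in Irf7 (knockout replicates 2 and 7), 9 of the 38 (23.7%) and 3.89% of all other genes did, and the median was 0.280 in place of 0.468. Of the 16 relations that passed, 9 kept a correlation of 0.5 or more without those mice, and the other 7 had 0.163 (Stat2) to 0.493 (Oasl2). Within Tln2-null mice the median was 0.519 and within knockout mice 0.520. The permutations took no account of the number in the sample titles. Irf7, Isg15, Oas2 and Oasl2 fell with that number, and Eif2ak2, Rsad2, Parp9 and Dtx3l rose with it. Its part in these correlations was not tested.

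By Pearson's r, Isg15 followed Irf7 most closely, and by Spearman's rho Oas1a did. Irf7 was highest in knockout replicate 2 at 21.2 CPM and lowest in knockout replicate 7 at 11.96 CPM, and Isg15 was at 7.26 and 3.01 CPM in the same mice. Its Pearson r was 0.866 (permutation p = 3e-05, adjusted 0.0011) and its Spearman's rho 0.700 (permutation p = 0.0034, adjusted 0.032). Without the 2 farthest mice r was 0.756, and it was 0.663 within Tln2-null and 0.936 within knockout mice. Oas1a had an r of 0.799 (permutation p = 0.00031, adjusted 0.0059) and a rho of 0.753 (permutation p = 0.0010, adjusted 0.032), and r was 0.661 without those mice. Stat2 had an r of 0.583 (permutation p = 0.017, adjusted 0.040) and a rho of 0.406 (permutation p = 0.12, adjusted 0.32). Without the 2 mice its r was 0.163. Irf9 fell likewise from 0.606 to 0.336 and Cmpk2 from 0.624 to 0.282. Within Tln2-null mice, which include neither of the 2, r was 0.51 for Stat2, 0.883 for Irf9 and 0.535 for Cmpk2. Rsad2 had an r of 0.018, Eif2ak2 of -0.27, Parp9 of -0.21 and Dtx3l of -0.20, none of which passed (permutation p adjusted 0.95, 0.41, 0.55 and 0.55).

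**Figure D5:**
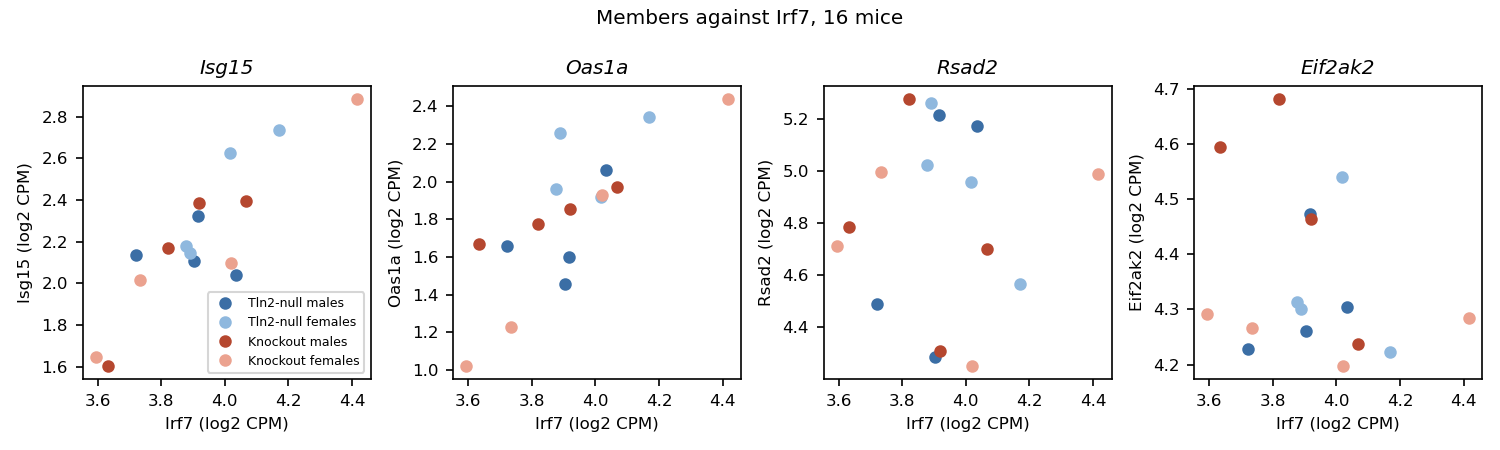
Log2 CPM of Isg15, Oas1a, Rsad2 and Eif2ak2 (vertical axes) against log2 CPM of Irf7 (horizontal axes), 1 point per mouse, coloured by genotype and sex. Isg15 and Oas1a rise with Irf7, with correlations of 0.866 and 0.799, while the points of Rsad2 (0.018) and Eif2ak2 (-0.27) show no such order.

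Other interferon-stimulated genes, 92 tested from a further list, followed the same mice only in part. Of these, 40 (43.5%) had a correlation of 0.5 or more with the mean of the 39, against 6.55% of all 13736 genes outside the list. So did 4 of the 9 fibroblast markers, 1 of 6 monocyte and 1 of 4 conventional dendritic cell markers tested, and none of the markers tested of macrophages, granulocytes, T and NK cells, B and plasma cells, plasmacytoid dendritic cells, endothelium, pericytes and smooth muscle, or cardiomyocytes. The part of fibroblast content in the pattern was not tested. For genotype, none of the 92 passed the adjusted threshold. At an unadjusted p under 0.05 there were 9 of 92, against 5.08% of all genes. Lower in knockout mice were 61 of them, with a median of -0.068, against 51.2% of all genes and a median of -0.0027. Ifitm1, which restricts viral fusion at the plasma membrane, had the lowest p, at 6.12 ± 1.71 CPM in Tln2-null mice and at 4.07 ± 1.37 CPM in knockouts (SD, n = 8). Its log2 difference of -0.61 ± 0.16 had an adjusted p of 0.42 in edgeR. Cxcl10, a chemokine for T cells, had a larger difference with a wider error, -0.89 ± 0.39, from 130 counts in all libraries together. Ifitm2 differed by -0.19 ± 0.084, and Il15, a cytokine for T and NK cells, by 0.22 ± 0.088.

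The 8 genes outside the list whose levels came closest to its mean over the 16 mice, among genes of at least 1 CPM, were Camsap2 (0.868), Sinhcaf (0.838), Rian (0.831), Ier2 (0.830), Tcaf1 (0.820), Sh3d19 (0.805), Rnf213 (0.803) and Skil (0.794). Only Rnf213, a large ubiquitin ligase, is on any of the interferon lists used here. The likeness is Pearson's correlation over 16 mice, picked as the highest of all genes, and is a description.

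In the upstream pathway no gene passed the adjusted threshold either. Of 9 receptors and kinases, 5 were higher and 4 lower in knockout mice. Jak1, the kinase of the receptor, was at 249 ± 29.8 CPM in Tln2-null mice and at 282 ± 29.1 CPM in knockouts (SD, n = 8), a log2 difference of 0.18 ± 0.078 with an adjusted p of 0.94 in edgeR. Jak2 and Il10rb differed by 0.10 ± 0.057 and 0.11 ± 0.077. Of 10 transcription factors, 2 were higher and 8 lower, those of lowest p being Irf8 (-0.18 ± 0.12), Rela (-0.10 ± 0.070) and Nfkb1 (-0.073 ± 0.054). Of 16 sensors and adaptors, 7 were higher and 9 lower, with Traf3 at -0.14 ± 0.081, Tlr9 at -0.33 ± 0.21 and Tlr7 at 0.22 ± 0.14. Of 11 negative regulators, 4 were higher and 7 lower, with Cactin at -0.11 ± 0.078, Ptpn6 at -0.13 ± 0.10 and Adar, which edits double-stranded RNA, at 0.076 ± 0.066. T and NK cell markers, cells that make interferon gamma, summed to between 4.16 and 10.4 CPM in Tln2-null mice and between 4.04 and 8.76 CPM in knockouts. Of 8 markers of plasmacytoid dendritic cells, which make interferon, the defining Siglech, Ccr9 and Klk1 had 48, 7 and 3 counts in all libraries together. The 8 summed to between 819.5 and 992.4 CPM in a library, nearly all of it Cox6a2 and Tcf4. Of the 4 that were tested, 1 had an unadjusted p under 0.05 for genotype, Runx2 at -0.68 ± 0.21, and none passed the adjusted threshold.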

How the data were processed

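Total RNA of the left ventricle of 16 mice was sequenced. Per the labels' protocols, TRIzol extraction and a column clean-up preceded a strand-specific (directional) library kit. DRAGEN, DESeq2 and mm10 appear in the submitters' processing notes, with no roles or versions; annotation and counting mode are not stated there. The deposited table of counts holds whole counts per gene symbol (24982 entries, 5760 of them 0 in every library). The normalized signal that the authors deposited for 16405 genes is the count divided by 1 size factor per library: multiplied back, 100% of values were whole within 0.001. It served only an alternative.

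Genotype and sex come from the labels. Replicate numbers follow the order of the records. Separate mice are assumed from the labels, and p-values measure the spread between them. No 2 libraries were duplicates (120 pairs). The listed genes and the other lists were chosen with earlier results of these data known.

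Counts were tested with edgeR 4.0.16 (quasi-likelihood test, R 4.3.3), with trimmed-mean normalization, its expression filter by genotype and sex, and Benjamini-Hochberg adjustment over 13775 genes at 0.05. Genotype and sex were fitted together; effects within sexes and their difference came from 1 mean per genotype and sex. Standard errors are the log2 fold change divided by the root of the F statistic. Log2 CPM used a prior count of 2. Alternatives used DESeq2 1.42.0, limma 3.58.1, sva 3.50.0, other filters and scalings, and each library left out. Scripts were tested on simulated data. Named with values were the genes of lowest p per comparison, the 5 of largest spread, those of highest mean and the transcription factors; genes named for a mouse's pattern, a neighbour or a sequence were chosen after their values were seen. Promoters are from RefSeq GRCm38.p6 and positions and lengths from GENCODE M21.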

Additional observations from a re-analysis of the deposited data

Results flagged for a closer look

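Within each genotype of 8 mice, the highest and the lowest mouse of the 22 named genes and of the mean of the list were compared with the rest by Dixon's criterion, 46 groups in all. In unselected groups chance flags about 1 in 20, and 8 values stood apart here. The 22 genes include the 5 of largest spread over these mice and those of lowest p. That rate therefore does not apply to them as a set. In Tln2-null replicate 8, Ifit3b was low at 3.32 CPM (others 5.43 to 6.84) and Isg20 high at 7.0 CPM (others 3.10 to 4.64). In Tln2-null replicate 2, Oasl1 was at 3.74 CPM (others 1.43 to 2.37) and Xaf1 at 34.9 CPM (others 19.04 to 25.4). Trim25 was at 81.7 CPM in Tln2-null replicate 1 (others 48.2 to 62.2). In knockout replicate 2, Irf9 was at 31.7 CPM (others 22.8 to 26.2) and Oasl1 at 3.38 CPM (others 1.17 to 2.19). Irf1 was low in knockout replicate 7 at 28.4 CPM (others 34.5 to 39.9).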

How the results depend on the processing

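No gene of the list was called for genotype, sex, genotype within a sex or the interaction under any alternative run. The number of all genes called for genotype, 0 in edgeR (700 at an unadjusted p under 0.05), was 1 without the filter on low counts, 1 with a surrogate variable, 11 with limma-voom and quality weights, 17 with DESeq2 and 5 without the pair of libraries apart in clock genes; it ranged from 0 to 7 with 1 library left out, the 7 without knockout replicate 8. For sex it was 12 in edgeR and 21 in DESeq2, and ranged from 10 to 14 with 1 library left out. For genotype in females (0 in edgeR, 456 at an unadjusted p under 0.05) it was 2 in DESeq2 and ranged from 0 to 1. For the title number it was 874 and ranged from 229 (without knockout replicate 8) to 1162, with 0 to 1 genes of the list called. The median genotype difference of the list ranged from -0.117 to -0.0026 with 1 library left out. It was -0.036 with the title number as an added term and -0.041 with a surrogate variable. Without the females with Y-linked counts above 1% of the male mean it was 0.0925, and Ifitm3 was then 0.0235. The causes were not tested. Of the recomputed values of the genes named for low p in a comparison, 594 kept their direction and side of the threshold, 1 reversed (Ifitm3) and 1 passed it (Parp9, title number, without Tln2-null replicate 2). Oas2, not among these, passed for the title number without Tln2-null replicate 8. The tally takes no account of size. Xaf1 for genotype counts as kept, though it went from -0.286 to -0.00886 without the females above the Y-linked limit. Outside the title number, the smallest adjusted p of a listed gene in edgeR was 0.77. Staying above the threshold was therefore likely from the start. No paired analysis was possible because the replicate numbers follow the order of the records and pair no mice. Genes such as Mx1 and Oas3, with 2 to 34 and 4 to 20 counts in a library, are limited by depth.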
